A study of Mus musculus with 6 samples.

Results

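The transcripts described here are those of 9 genes that mark bile ducts or rise in the ductular reaction, the spread of duct-like cells in a cholestatic liver. They are Krt7, Krt19, Krt8, Krt18, Epcam, Sox9, Spp1, Cldn7 and Cd24a, chosen by name as cholangiocyte, progenitor and keratin genes, and all 9 were found among the 58601 rows of the deposited table. Expression was measured by RNA sequencing of total RNA from frozen mouse liver, with 3 vehicle libraries and 3 lycorine libraries. Lycorine is a plant alkaloid found in Amaryllidaceae such as daffodils. All mice of both groups were labelled knockouts of Mdr2 (the gene Abcb4, which moves phosphatidylcholine into bile), were 8 weeks old and were treated for 2 weeks. One label calls the genotype Mdr2-HKO, and the labels used here do not say which cells lost the gene, the strain, the sex or the dose. By its title, the study asked about the action of lycorine in intrahepatic cholestasis. No wild-type liver was analysed here, so the data cannot show how far these genes were raised by the knockout. Values are in TPM, a level corrected for transcript length in which every library has the same total of 1000000, so the sequencing depth is unknown. The labels do not state that each library is a separate animal, so the spread that p-values rest on could be technical.

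Cholangiocytes are the epithelial cells that line the bile ducts. In an adult liver they hold the keratin pair of type II Krt7 and type I Krt19, while hepatocytes hold mainly the simpler pair of Krt8 and Krt18, which cholangiocytes also express. When bile flow is blocked or bile is toxic, duct-like cells multiply at the portal edge under the transcription factor Sox9, and carry surface proteins such as Epcam and Cd24a. These cells also secrete osteopontin, the product of Spp1. Loss of Mdr2 is a widely used model of sclerosing cholangitis with such a reaction.

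The libraries differed in makeup before any gene is considered. Nuclear genes that code for protein made up 63.7% to 78.1% of TPM except in vehicle 3, where the share was 51.5%, and vehicle 3 had the lowest mean correlation with the other libraries, 0.759 across genes, against 0.855 to 0.903. Hepatocyte transcripts were abundant in every library, with albumin (Alb) at 5038.5 to 19785 TPM, so the tissue label held. Abcb4 itself was at 43.5, 10.8 and 12.3 TPM in vehicle 1 to 3 and at 8.96, 8.32 and 32.2 TPM in lycorine 1 to 3. A gene-level value cannot tell which part of a transcript remains, so it does not check the genotype. Lycorine 1 and vehicle 1 had the most rows above 0, 21268 and 20972 against 19408 to 20605, and mitochondrial genes held 9.48% and 12.85% of TPM there against 10.79% to 20.15%.

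Duct transcripts did not differ between lycorine and vehicle beyond the spread between libraries. Of the 9 genes 0 passed a Benjamini-Hochberg adjusted p of 0.05 in limma, with 0% of the 13854 tested rows passing, and adjusted p values ran from 0.832 to 0.988. At an unadjusted p of 0.05 there were again 0 of 9, against 3.44% of tested rows. The lycorine and vehicle ranges overlapped in all 9 genes, where 10.6% of tested rows had groups that did not overlap, 9.6% with lycorine higher and 1.01% with lycorine lower. What varied was the library: vehicle 1 and lycorine 1 were the highest pair in 8 of the 9 genes, against 26.5% of tested rows. In bulk liver, fewer duct cells and less RNA per duct cell cannot be told apart.

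The keratins that mark ducts varied several-fold within each group. Krt19, the type I keratin most used to stain bile ducts (chromosome 11, 100140810 to 100148665 on GRCm38), was at 47.0, 9.65 and 13.7 TPM in vehicle 1 to 3 and at 30.8, 19.4 and 9.67 TPM in lycorine 1 to 3. Vehicle 1 was the highest of all libraries, vehicle 2 and lycorine 3 were the lowest and nearly equal, and the groups overlapped. The means were 23.5 ± 20.5 and 19.95 ± 10.6 TPM (SD, n = 3 each). This was a log2 fold change of -0.04 on the scale of TPM + 1 with a 95% interval of -1.53 to 1.45 (limma adjusted p = 0.988). With median-of-ratios scaling the value was -0.33. Krt19 was the only gene of the 9 with a fold change below 0, and without vehicle 1 that value was 0.60.

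Krt7, the type II keratin that pairs with Krt19 in duct cells (chromosome 15, 101411043 to 101430313), was at 16.9, 1.99 and 5.13 TPM in vehicle 1 to 3 and at 20.8, 6.42 and 3.73 TPM in lycorine 1 to 3. Library 1 of each group stood at least 3 times above the other libraries of its group, and vehicle 2 was the lowest of the 6. The highest vehicle library was 8.48 times the lowest. On the log2 scale lycorine was 0.41 above vehicle, with a 95% interval of -1.39 to 2.20 and an adjusted p in limma of 0.907. Without vehicle 2 the difference was -0.195 and without lycorine 1 it was -0.22.

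The surface and junction proteins of duct cells followed the same libraries. Epcam, an adhesion molecule that mature hepatocytes lack (chromosome 17, 87635979 to 87651129), was at 13.8, 3.03 and 3.43 TPM in vehicle 1 to 3 and at 14.3, 9.87 and 2.66 TPM in lycorine 1 to 3. Vehicle 1 and lycorine 1 were close to each other, lycorine 2 lay between, and lycorine 3 was the lowest of all. Cldn7, a claudin of epithelial tight and basolateral junctions (chromosome 11, 69964779 to 69967885), was at 22.7, 2.94 and 8.18 TPM in vehicle 1 to 3 and at 22.2, 8.54 and 5.03 TPM in lycorine 1 to 3. Again library 1 of each group was the highest and vehicle 2 the lowest. Cd24a, a small glycosylated surface protein of progenitor cells that B cells and neutrophils carry too (chromosome 10, 43578284 to 43584265), was at 10.3, 2.26 and 4.53 TPM in vehicle 1 to 3 and at 15.9, 7.23 and 3.88 TPM in lycorine 1 to 3. Their log2 fold changes were 0.40 for Epcam (95% interval -1.19 to 1.99), 0.21 for Cldn7 (-1.49 to 1.92) and 0.58 for Cd24a (-0.80 to 1.96), with limma adjusted p values of 0.895, 0.948 and 0.833. Cldn7 changed sign to -0.42 without vehicle 2 and -0.32 without lycorine 1, and Cd24a was 0.155 without vehicle 2 and 0.11 without lycorine 1.

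**Figure D1:**
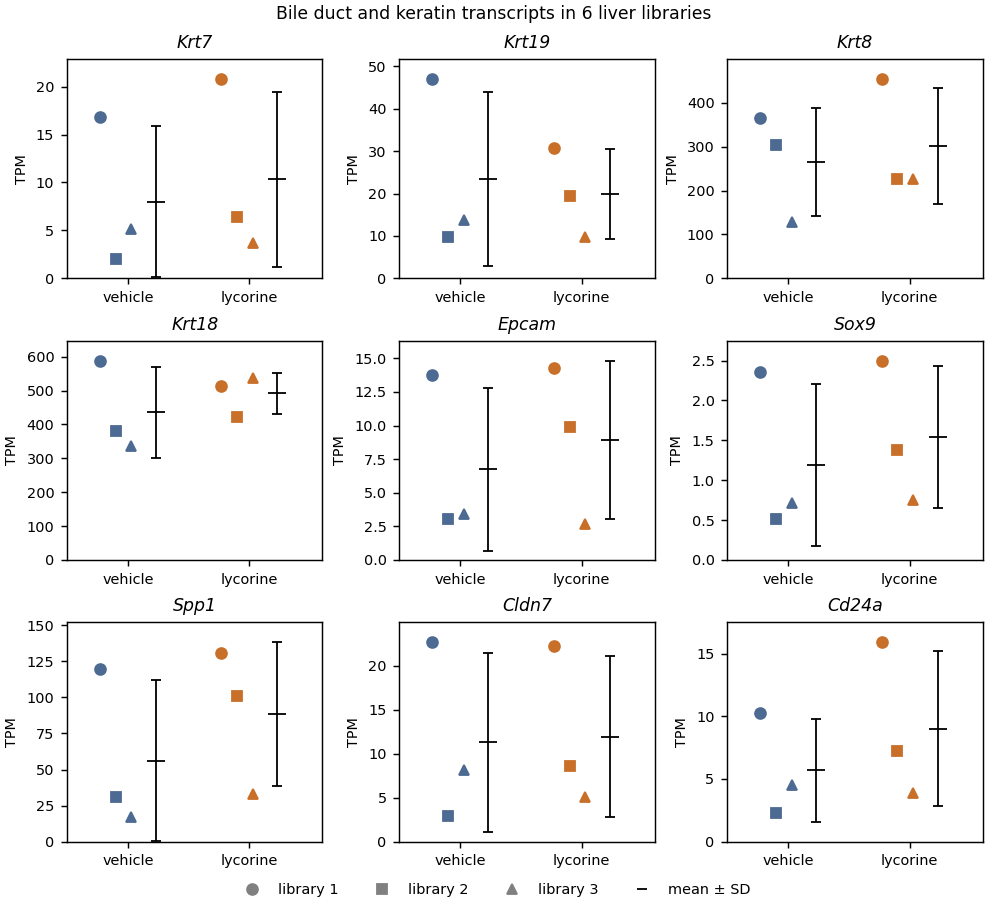
Level in TPM (vertical axes, each with its own scale) of the 9 bile duct and keratin genes in vehicle (blue) and lycorine (orange) libraries, where each symbol is 1 library and the black bar is the mean ± SD of 3. The circle, library 1, is the highest point of its group in every panel but that of Krt18 in lycorine, and the groups overlap in all 9 panels.

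Sox9, the transcription factor that specifies bile duct cells (chromosome 11, 112782224 to 112787760), was the weakest of the 9 genes. It was at 2.36, 0.51 and 0.71 TPM in vehicle 1 to 3 and at 2.5, 1.38 and 0.75 TPM in lycorine 1 to 3, with library 1 highest in both groups. Its log2 fold change of 0.25 (95% interval -0.94 to 1.44, limma adjusted p = 0.917) is held down by the added 1 TPM, since its level is near that size. Spp1, which encodes osteopontin, a secreted protein that binds integrins and CD44 (chromosome 5, 104435118 to 104441050), had the largest fold change of the 9. It was at 120.0, 31.2 and 16.8 TPM in vehicle 1 to 3 and at 130.8, 101.0 and 33.4 TPM in lycorine 1 to 3. Lycorine 2 stayed near the high pair here, and lycorine 3 lay just above vehicle 2. The means were 55.99 ± 55.9 and 88.4 ± 49.95 TPM (SD, n = 3 each). This was a log2 fold change of 0.91 with a 95% interval of -0.91 to 2.73 (limma adjusted p = 0.832, and 0.4 in a two-sided exact permutation test). That fold change was 1.69 without vehicle 1 and 0.31 without vehicle 3.

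The keratins that hepatocytes share with ducts were far more abundant and steadier than Krt7 and Krt19. Krt8, the type II partner (chromosome 15, 101996698 to 102004482), was at 364, 303 and 128 TPM in vehicle 1 to 3 and at 454, 226 and 226 TPM in lycorine 1 to 3. Vehicle 3 was the low library, as it was for albumin. Krt18, the type I partner (chromosome 15, 102028180 to 102032027), was at 589, 382 and 337 TPM in vehicle 1 to 3 and at 514, 422 and 539 TPM in lycorine 1 to 3, the narrowest spread of the 9. The highest lycorine library was 1.28 times the lowest, where for Krt7 that factor was 5.57. Their log2 fold changes were 0.24 (95% interval -0.89 to 1.36) and 0.21 (-0.51 to 0.93), with limma adjusted p values of 0.917 and 0.878. With median-of-ratios scaling between libraries these values were -0.07 and -0.10.

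A fold change above 0 was found in 8 of the 9 genes, where 69.9% of tested rows had one. The median over the 9 genes was 0.25 and over all tested rows 0.22. These medians were 0.873 and 0.383 without vehicle 1, 0.65 and 0.243 without lycorine 3, and -0.023 and 0.161 without lycorine 1. With median-of-ratios scaling, 5 of the 9 were above 0 and the median of all rows was -0.020. Without lycorine 1, 3 of the 9 (Krt18, Spp1 and Cd24a) were above 0, and Epcam and Sox9 were at -0.023 and -0.0098; without vehicle 2 there were 6, and without vehicle 1 or without lycorine 3 all 9 were. Krt18, Spp1 and Cd24a kept their sign with each library left out in turn, and the other 6 genes changed sign in at least 1 such fit. Without the pair of vehicle 3 and lycorine 3, 7 of the 9 were above 0.

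**Figure D2:**
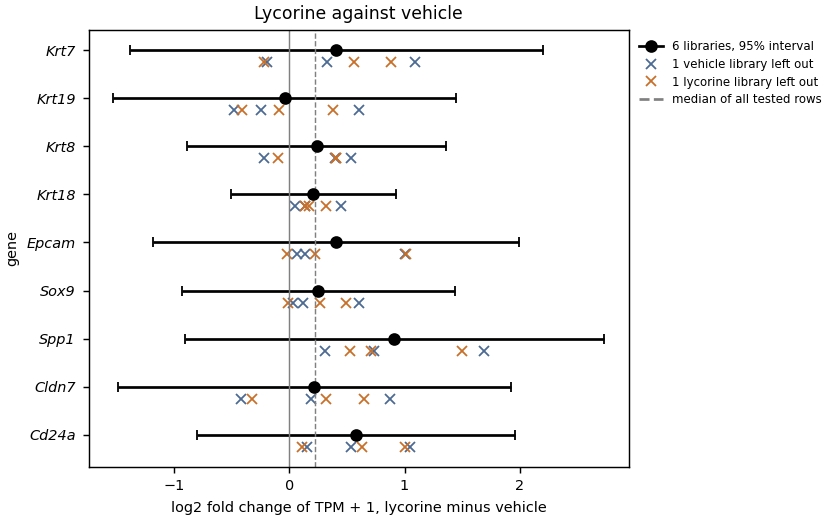
Log2 fold change of TPM + 1, lycorine minus vehicle (horizontal axis), for the 9 genes, as black points with 95% intervals from limma, and as crosses with 1 library left out. Every interval includes 0, and the crosses of Krt19, Krt7, Krt8, Cldn7, Epcam and Sox9 lie on both sides of 0; the dashed line is the median of all tested rows, 0.22.

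Apart from Krt18, the genes shared their highest libraries, 1 of each treatment. Each gene's log2(TPM + 1) was set against its own mean over the 6 libraries. The median of the 9 deviations was 1.0 in vehicle 1 and 1.05 in lycorine 1, against 0.07 in lycorine 2 and -0.39, -0.71 and -0.86 in vehicle 3, lycorine 3 and vehicle 2. All tested rows had medians of 0.15 and 0.22 in the first pair, so these libraries were also the higher ones across the table. With median-of-ratios scaling, vehicle 1 and lycorine 1 remained the highest pair in 7 of the 9 genes, and this held for 9.79% of tested rows. With values rescaled to protein-coding nuclear genes the same was seen in 8 of the 9 genes and in 23.4% of tested rows. The library numbers do not pair the mice by any label, so the shared number of these libraries carries no stated meaning. The same libraries had the most rows above 0, as given above, and the part of this in the shared pattern was not tested.

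**Figure D3:**
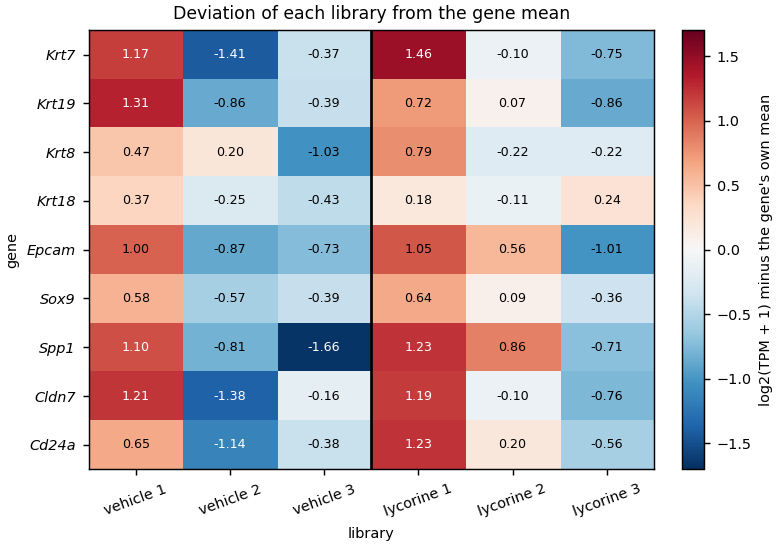
Deviation of each library's log2(TPM + 1) from the gene's mean over 6 libraries (color and printed value), for 9 genes (rows) and 3 vehicle and 3 lycorine libraries (columns, split by the black line). The columns of vehicle 1 and lycorine 1 are above 0 in all rows, while Krt18 stays between -0.43 and 0.37.

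Because the genes moved together across libraries, the stretches before their start sites are shown for members with a RefSeq promoter entry on GRCm38.p6. The table held 6 of the 9 genes, Krt7, Krt8, Krt18, Epcam, Spp1 and Cldn7, with 8 start sites. Epcam, Spp1 and Cldn7 stand for the duct genes, and Krt8 and Krt18 for the keratin pair that hepatocytes share. These 2 keratin genes are neighbours on chromosome 15 read in opposite directions. Krt8 shared its highest libraries, vehicle 1 and lycorine 1, with Epcam, Spp1 and Cldn7, and Krt18 did not. Capitals mark matches to any of 8 motifs on either strand. Bases annotated as exons in GENCODE M21 were left out of the sequences listed next.
Epcam, chr17:87635829-87635978, plus strand: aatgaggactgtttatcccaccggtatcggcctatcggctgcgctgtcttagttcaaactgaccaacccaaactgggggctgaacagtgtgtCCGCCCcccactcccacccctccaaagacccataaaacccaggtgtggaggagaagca
Spp1, chr5:104434961-104435110, plus strand: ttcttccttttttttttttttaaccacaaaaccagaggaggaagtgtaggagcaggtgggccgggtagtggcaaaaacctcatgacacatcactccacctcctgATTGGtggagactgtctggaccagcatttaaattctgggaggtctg
Cldn7, first start, chr11:69964629-69964778, plus strand: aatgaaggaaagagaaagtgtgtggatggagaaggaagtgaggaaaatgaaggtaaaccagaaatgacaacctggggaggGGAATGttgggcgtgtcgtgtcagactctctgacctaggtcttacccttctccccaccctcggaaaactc
Krt18, chr15:102028030-102028179, plus strand: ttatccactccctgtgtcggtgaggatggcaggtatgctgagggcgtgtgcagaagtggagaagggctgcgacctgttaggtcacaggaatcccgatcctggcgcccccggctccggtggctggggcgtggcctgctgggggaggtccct
Krt8, chr15:102004483-102004592, minus strand: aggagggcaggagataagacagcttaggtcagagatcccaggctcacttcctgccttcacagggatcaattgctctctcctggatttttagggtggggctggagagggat

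The motifs searched in the 250 bases before each start, on both strands, were GGGCGG (the GC box), TATAAA (the box of the same name bound by TBP), CCAAT (the box bound by NF-Y), GGAATG (the core of a TEAD site), TGGGAA (the core of an RBPJ site), ACAATG (the core of a SOX site), TGANTCA (which AP-1 binds) and TGACGTCA (a cAMP response element, which ATF and CREB factors bind). Their shares of all 32851 promoters were 32.7%, 12.4%, 33.8%, 12.6%, 21.6%, 10.7%, 6.75% and 1.55%, in that order. In the printed stretches Epcam held a GC box on the other strand, Spp1 a CCAAT box on the other strand and Cldn7 a TEAD core, and no capitals stand in those of Krt8 and Krt18. Over the whole 250 bases Krt8 also held an RBPJ core, Spp1 a TATA box and Krt7 4 GC boxes, and Krt18 held none of the 8. The window before the other start of Cldn7 also held an RBPJ core and a GC box, both on the other strand. None of the 6 genes searched held the AP-1 or SOX letters in this window. The cAMP response element, shown because the title of the study names the ATF factor ATF3, was found before the other start of Cldn7. That start lies within the gene, and the stretch below was cut around the motif without removing annotated exons.
Cldn7, other start, chr11:69965373-69965400, plus strand: gtcccttcagTGACGTCAggtcactcga
The level of Cldn7 given above is for the whole gene and does not tell which start was used. A match is a description of letters and not a bound site.

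Spread within groups was wide for most of the duct genes compared with other transcripts. The pooled SD within groups on the log2 scale was 1.24 for Spp1, 1.22 for Krt7 and 1.152 for Cldn7, which places them at percentiles 88.3, 87.7 and 85.6 of all tested rows. Krt8 was at 0.70 and Krt18 at 0.33, at percentiles 67.3 and 22.0. Sox9 was at 0.56, at percentile 55.8. The added 1 TPM lowers the spread of weak rows, and the percentiles are not matched for level. The median percentile over the 9 genes was 80.8, and over 32 tested genes of a wider list of bile duct markers it was 75.5. As an example of what 3 against 3 libraries can show, the interval of Krt7 reached from 0.38-fold to 4.6-fold of TPM + 1.

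Genes with the profile closest to Krt19 and Epcam came from outside the 9. Likeness was the root mean square difference between 2 centred profiles of log2(TPM + 1) over 6 libraries, among 6063 named protein-coding genes with a mean of at least 5 TPM. For Krt19 the closest were Ltbp3 (0.12), Gpsm3 (0.14), Nfkbie (0.14), Ltb (0.15) and Ezr (0.16). The closest of the other 8 genes were Epcam and Cldn7 (0.31 each), at ranks 106 and 107, and Cd24a and Krt7 were at ranks 190 and 199. For Epcam the closest were Selenom (0.08), Tm4sf1 (0.18), Pianp (0.19) and Sparc (0.19), with Krt19 and Cd24a at ranks 48 and 61. Selenom was at 43.9, 11.4 and 11.3 TPM in vehicle 1 to 3 and at 43.5, 28.5 and 10.6 TPM in lycorine 1 to 3, with vehicle 1, lycorine 1 and lycorine 2 highest and lycorine 3 lowest, as for Epcam. Krt8, Krt18 and Spp1 were the farthest of the other 8 genes from Krt19, at 0.68, 0.68 and 0.65 (ranks 2112, 2213 and 1771). From Epcam, Krt8 and Krt18 were at 0.69 and 0.78 (ranks 1813 and 3209) and Spp1 at 0.42 (rank 149).

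Ratios between genes of the same library are nearly free of the scaling between libraries, and 7 of them were tested. The level of Spp1 relative to Krt19 was 2.55, 3.23 and 1.22 in vehicle 1 to 3 and 4.24, 5.22 and 3.45 in lycorine 1 to 3. Each lycorine library lay above each vehicle library, although in TPM neither gene separated the groups. The mean log2 ratio of TPM + 1 was 1.07 ± 0.70 in vehicle and 2.02 ± 0.32 in lycorine (SD, n = 3 each), a difference of 0.95 with a two-sided exact permutation p of 0.1, the smallest that 3 against 3 allows. Adjusted over the 7 ratios that were tested, p was 0.7. The difference ranged from 0.56 without vehicle 3 to 1.22 without vehicle 2. Since the groups did not overlap, leaving out 1 library could not change its sign.

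The other tested ratios overlapped between groups. Epcam relative to Krt19 was 0.29, 0.31 and 0.25 in vehicle 1 to 3 and 0.46, 0.51 and 0.28 in lycorine 1 to 3, a log2 difference of 0.45 (exact permutation p = 0.2). Krt7 relative to Krt19, the type II and type I duct keratins, was 0.36, 0.21 and 0.37 in vehicle 1 to 3 and 0.67, 0.33 and 0.39 in lycorine 1 to 3, a log2 difference of 0.45 (exact permutation p = 0.3). Krt8 relative to Krt18, the main keratin pair of hepatocytes, was 0.62, 0.79 and 0.38 in vehicle 1 to 3 and 0.88, 0.54 and 0.42 in lycorine 1 to 3, with library 3 lowest in both groups and a log2 difference of 0.03 (exact permutation p = 1). The differences were -0.25 for Krt19 to Krt18, 0.17 for Krt7 to Krt8 and -0.19 for Cldn7 to Epcam, and each changed sign when single libraries were left out.

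Ratios of the 5 other genes to Krt19 were added after the values had been seen and are given without a test. That of Krt18 is the inverse of a ratio tested above. Cd24a relative to Krt19 was 0.22, 0.23 and 0.33 in vehicle 1 to 3 and 0.52, 0.37 and 0.40 in lycorine 1 to 3. Sox9 relative to Krt19 was 0.05 in each vehicle library and 0.08, 0.07 and 0.08 in lycorine, a narrow band in both groups although both genes varied more than 3-fold within them. On the scale of TPM + 1, 2 of the 8 ratios to Krt19, those of Spp1 and Cd24a, were higher in every lycorine library than in every vehicle library, and 0.679% of all tested rows were so relative to Krt19. None of the 8 was lower without overlap, against 0.426% of rows. With no pseudocount there were 3 of 8, with Sox9 the third, against 1.71% of the rows that were above 0 in every library. The 8 ratios share Krt19 and are not independent of each other. Apart from Krt18, the genes set against Krt19 also share its highest libraries, which 26.5% of tested rows do. A ratio takes out spread that 2 genes share, so these shares of all rows are not a like comparison for the 8. All 8 had a higher mean in lycorine, as did 72.4% of all rows set against Krt19.

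**Figure D4:**
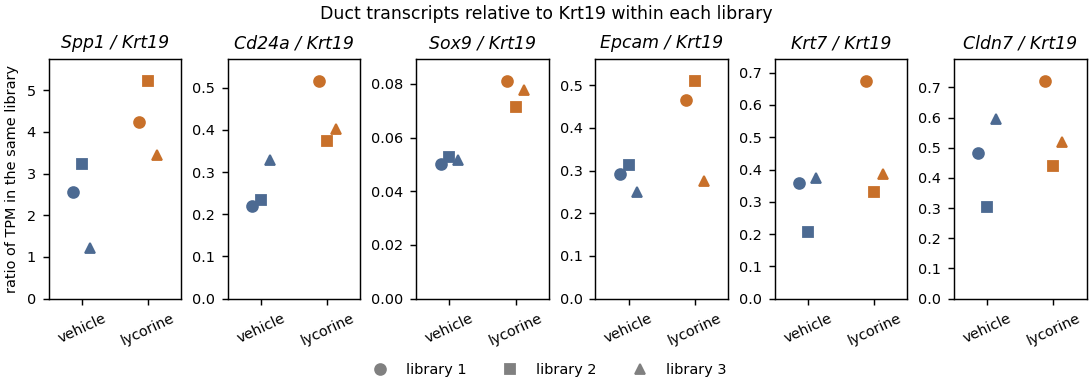
TPM of 6 duct genes divided by the TPM of Krt19 in the same library (vertical axes, from 0), for 3 vehicle (blue) and 3 lycorine (orange) libraries, each symbol 1 library. The groups do not overlap for Spp1, Cd24a and Sox9 and overlap for Epcam, Krt7 and Cldn7.

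A wider list of bile duct genes held 0 calls too. Of 40 genes 32 were tested, 18 were above 0 and 14 below, and 0 passed in either direction, with a median log2 fold change of 0.125 that ran from -0.126 without vehicle 2 to 0.498 without vehicle 1. The highest pair was vehicle 1 and lycorine 1 in 16 of the 32, against 26.5% of all tested rows. The 3 genes with the smallest unadjusted p were Cftr, Anxa5 and Muc1. Cftr, the chloride channel of the duct surface, was at 6.45, 0.11 and 8.25 TPM in vehicle 1 to 3 and at 0.71, 0.80 and 0.34 TPM in lycorine 1 to 3. Vehicle 1 and vehicle 3 were high and vehicle 2 was the lowest library of all, so the groups overlapped, and lycorine minus vehicle was -1.40 on the log2 scale with an SE of 0.79 (adjusted p = 0.832 in limma). Anxa5, a membrane-binding annexin, had a log2 fold change of 1.06 and Muc1, a surface mucin, -0.72, both with overlapping groups.

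Signals that drive the ductular reaction did not separate the groups either. Of 28 genes of the Notch, Hippo, TWEAK, integrin and TGF-beta routes 19 were tested, 9 were above 0 and 10 below, and 0 passed in either direction. The median was -0.057, and it was -0.457 without lycorine 1 and 0.315 without vehicle 1. The smallest unadjusted p values belonged to Amotl2, a target of the Hippo effector YAP, at -0.62, to the receptor Notch1 at -1.22 and to Wwtr1, which encodes the YAP partner TAZ, at 0.65. Notch1 was at 16.2 TPM in vehicle 3 and no higher than 1.2 TPM in the other libraries, and Wwtr1 was at 19.2 TPM in lycorine 3 and at most 6.05 TPM elsewhere, so in each case a single library stood far above the rest. Tnfrsf12a, the receptor of TWEAK, a mitogen of progenitor cells, was at 69.8, 34.8 and 9.51 TPM in vehicle 1 to 3 and at 52.5, 19 and 8.99 TPM in lycorine 1 to 3. Cd44, a receptor of osteopontin, was at 14.1, 2.4 and 6.61 TPM in vehicle 1 to 3 and at 9.91, 3.45 and 3.14 TPM in lycorine 1 to 3.

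Junction and keratin partner genes were tested as well. Of 17 claudin and tight junction genes 13 were tested, with 9 above 0 and 4 below (median 0.16), and of 17 genes of the keratin cytoskeleton 11 were tested, with 8 above 0 and 3 below (median 0.24). In both lists 0 passed in either direction. Without vehicle 1 the medians were 0.693 and 0.555, without vehicle 3 that of the claudin list was -0.041, and without lycorine 1 that of the keratin list was 0.035. Cldn2, a channel-forming claudin, was at 5.79, 3.94 and 2.54 TPM in vehicle 1 to 3 and at 9.04, 6.23 and 5.78 TPM in lycorine 1 to 3, a log2 fold change of 0.68 (SE 0.34, limma adjusted p = 0.832), with a single pair of libraries, vehicle 1 and lycorine 3, out of order. Marveld2 and Ocln, both of the tight junction, had values of 0.57 and 0.48. Among keratin partners, Tgm2, a transglutaminase that crosslinks keratins, had 0.76, Krt10 0.69 and Dsg2, a desmosomal cadherin, 0.59. Krt10 was at most 0.97 TPM in vehicle and at least 1.16 TPM in lycorine, so it did not overlap, at levels near the added 1 TPM. No other gene of the 11 was without overlap, where 9.6% of all tested rows were higher in lycorine without overlap.

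Other cell types of the liver express some of the 9 genes, and their markers were read beside them. Osteopontin is also made by lipid-associated macrophages, whose 12 markers summed to 302 to 842 TPM in vehicle and 307.5 to 877 TPM in lycorine. Of the 10 tested, 8 had vehicle 1 and lycorine 1 as the highest pair, against 26.5% of all tested rows. The median deviation of the 10 was 0.81 and 0.72 in these libraries and at most 0.06 elsewhere. The same pair was highest in 12 of 19 ductular signal genes, 7 of 13 claudin and tight junction genes and 6 of 11 keratin partner genes. Stellate cell and fibroblast markers, 13 in all, summed to 107 to 236 TPM in vehicle and 61.8 to 273 TPM in lycorine, and 6 of 11 tested had the same highest pair. Their part in the levels of Spp1 and the other genes was not tested.

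B cells and neutrophils, which carry Cd24a, were read by their markers too. The 10 B cell markers had sums of 23.1 TPM (vehicle 1) and 17.9 TPM (lycorine 1), against 5.81 to 8.48 TPM in the other libraries, the same highest pair as Cd24a. Of the 3 tested, 2 had that pair, against 26.5% of all tested rows. Ighm, the heavy chain of IgM, made up most of the sum in that pair, at 13.3 and 12.3 TPM against 2.27 to 4.83 TPM elsewhere. Ms4a1, a B cell surface protein, was at most 0.14 TPM. The part of B cells in the level of Cd24a was not tested. The 10 neutrophil markers summed to 7.07 to 29.0 TPM in vehicle and 1.83 to 4.51 TPM in lycorine, lower in lycorine with no overlap. Of these S100a9 was at 3.34 to 12.66 TPM in vehicle and at most 1.55 TPM in lycorine, while Ly6g was at 0 in all 6 libraries. Of the 3 tested, only S100a9 was lower in lycorine with no overlap, as were 1.01% of all tested rows. The 10 erythroid markers, of which 9 were matched, summed to 523 to 768 TPM in vehicle and 431 to 689 TPM in lycorine, mostly from the globin gene Hba-a1, at 315 to 626.5 TPM, while Epb42 was at 0 in all libraries. Kupffer cell markers, 12 in all, summed to 235 to 567 TPM in vehicle and 157.5 to 415 TPM in lycorine, and all 10 that were tested had a fold change below 0. Of these 0 passed the adjusted threshold, 5 had an unadjusted p under 0.05 (against 3.44% of all rows) and 5 were lower in lycorine with no overlap (against 1.01%).

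Mesothelium, pancreas and gut, whose epithelia share some of these keratins, were read by their markers as well. Of the 10 mesothelial markers, those of the liver's outer lining, only Krt19 passed the filter on low values, and it belongs to both lists. Msln, which defines mesothelium, was between 0.35 and 1.0 TPM. Among 14 pancreatic and gut markers Prss2, Cpa1, Pnlip, Sis and Fabp6 were at 0 in all libraries, and the list summed to 21.3 to 43.4 TPM in vehicle and 50.1 to 62.4 TPM in lycorine, higher in lycorine with no overlap. Most of that was Fabp2, at 10.24 to 38.91 TPM, and Cela1, at 9.82 to 21.62 TPM. These 2 of the 3 tested genes of the list were higher in lycorine with no overlap, as were 9.6% of all tested rows. The 15 hepatocyte markers summed to 60284.5 to 107683 TPM in vehicle and 101567 to 134389 TPM in lycorine, with vehicle 3 the lowest. Of them 3 had vehicle 1 and lycorine 1 as the highest pair, a share of 20%, against 26.5% of all tested rows.

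**Figure D5:**
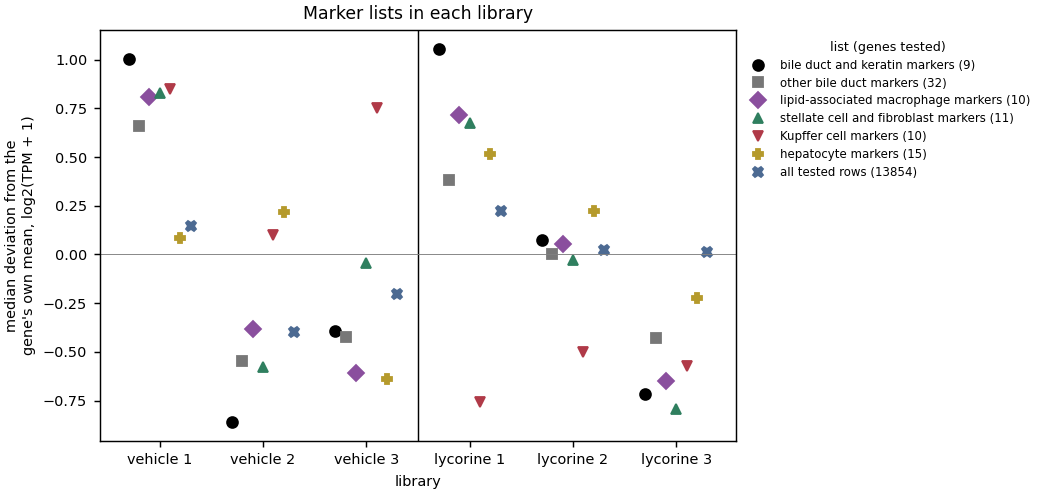
Median deviation of a list's tested genes from their own means on the log2(TPM + 1) scale (vertical axis) in each library (horizontal axis), with 1 symbol per list and the number of genes tested in the legend. The bile duct and keratin markers reach 1.0 in vehicle 1 and 1.05 in lycorine 1, beside lipid-associated macrophage and stellate cell markers, while hepatocyte markers are at 0.09 and 0.52 there.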

How the data were processed

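The authors deposited 1 table of expression per gene and library. The file is named for FPKM, yet all 6 deposited columns total 1000000 within rounding, so the values are TPM. The submitters' processing notes name the builds GRCm38 and mm10; for the aligner, quantifier and annotation, names were not given in the sources used here. Vehicle columns carry only genotype and number and were assigned to vehicle because the lycorine titles were taken by the other columns. TPM keeps no depth, so no counting interval is given.

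GENCODE M21, an annotation of GRCm38, supplied coordinates and symbols for 52135 identifiers. The 13854 rows whose mean reached 1 TPM, all 9 genes among them, were tested on log2(TPM + 1), whose fold changes understate those of weak genes. A two-sided limma fit with a variance trend (limma 3.58.1, R 4.3.3) gave p values, and Benjamini-Hochberg adjustment ran over all tested rows. Single values had exact permutation tests over 20 assignments. The procedure was tested on simulated data. Genes named besides the 9 are Abcb4 and Alb as checks, the 3 with the smallest p in each duct, signal, junction and keratin list, the 5 nearest profiles (1 of those of Epcam is not reported here), and, chosen after their values were seen, Tnfrsf12a, Cd44 and single markers of other cell types. Those cell types were otherwise described by counts and sums. The members and the 13 other gene lists were chosen with earlier results of these data known; of 209 listed genes 1, Ahsp, was not matched. Krt8-ps, a processed pseudogene, was at 0 TPM, and the annotated genes that overlap Krt7, Krt8 and Spp1 reached at most 0.37 TPM. Median-of-ratios scaling shifts the median of all rows from 0.22 to -0.020.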

Additional observations from a re-analysis of the deposited data

How the results depend on the processing

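The 16 alternatives for the fit changed the pseudocount, filter, scaling, library weights, replicate block or libraries used. In none did any of the 9 genes reach a limma adjusted p of 0.05, and the smallest was 0.521, without vehicle 1. At an unadjusted p of 0.05, 1 of the 9 passed without vehicle 1 (Spp1, where 1155 of 13798 rows did, 8.37%) and 1 with the replicate block (Spp1 again, where 1033 of 13854 rows did, 7.46%). Spp1 and Cd24a stayed above 0 in all 16, of which the changed filters and the replicate block cannot alter a gene's fold change. Over all rows 0 were called with 6 libraries, and 476 had an unadjusted p under 0.05. The call was made for 1 row with a pseudocount of 0.1, for 1 with array quality weights (an estimate that stopped before convergence), for 0 to 2 with 1 library left out, and for 5 without vehicle 3 and lycorine 3.

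Scaling lowered the values and turned small ones. Krt19, Krt7, Epcam, Sox9, Spp1 and Cd24a were -0.331, 0.162, 0.152, 0.11, 0.61 and 0.33 with median-of-ratios scaling. Krt8, Krt18 and Cldn7 were -0.074, -0.103 and -0.048 with median-of-ratios scaling, where the median of all rows was -0.020, and -0.029, -0.0585 and -0.016 with protein-coding nuclear genes. Krt8 and Krt18 were -0.057 and -0.060 with quantile normalization. With array quality weights Krt19 was 0.203 and Krt8 -0.245. Without vehicle 3 and lycorine 3, Krt19 was 0.17, Krt8 -0.052 and Krt18 -0.025, and the log2 ratios Krt8 to Krt18, Krt19 to Krt18 and Krt7 to Krt8 were -0.027, 0.195 and 0.85. With 1 library left out the ranges were -0.219 to 1.09 for Krt7, -0.482 to 0.604 for Krt19, -0.219 to 0.532 for Krt8, 0.045 to 0.446 for Krt18, -0.023 to 1.01 for Epcam, -0.0098 to 0.604 for Sox9, 0.309 to 1.69 for Spp1, -0.42 to 0.873 for Cldn7 and 0.108 to 1.05 for Cd24a. For the log2 ratios they were -0.269 to 0.265 for Krt8 to Krt18, -0.616 to 0.237 for Krt19 to Krt18, -0.593 to 0.563 for Krt7 to Krt8 and -0.488 to 0.095 for Cldn7 to Epcam. The median of the 9 genes ran from -0.023 to 0.873 and that of claudin and tight junction genes from -0.041 to 0.693. The cause of these shifts was not tested. With a minimum mean of 5 TPM Sox9 was not fitted.

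With the replicate number as a block 0 rows were called, and the limma adjusted p of the 9 genes was at least 0.595. Their log2 fold changes cannot change in this fit, since each number holds a vehicle and a lycorine library. Deviations from the group means correlated by 0.311, 0.049 and 0.291 across genes between libraries of the same number. Between unlike numbers the values ran from -0.344 (vehicle 3 with lycorine 1) to 0.214 (vehicle 2 with lycorine 1). Each lycorine library correlated best with the vehicle library of its own number, while vehicle 2 correlated better with lycorine 1 than with lycorine 2. No label pairs the mice, so the main fit used no pairing, and whether the numbers pair them was not tested.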
